A study of Strongylocentrotus droebachiensis with 6 samples.

Results

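MTa, a metallothionein gene, was followed across 6 RNA-seq libraries made from green sea urchin (Strongylocentrotus droebachiensis) embryos. It is 1 row of the 31261 in the deposited gene table, found by its gene name. It was chosen by its measured values, since it is abundant and varies strongly between libraries of the same group. Its level and its spread are therefore given as a description, without a test. The difference between half-size and control embryos was not itself part of the choice. The spread within groups was, and it sets the error of the unblocked comparison. The choice therefore made it likely in advance that MTa would not pass there.

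All embryos were wild type and were kept at 8 °C until they were 46 hours old, at the mesenchyme blastula stage. At this stage the skeleton-forming cells move into the cavity of the embryo. Half-size embryos (3 libraries) grew from blastomeres separated at the 2-cell stage, 3.5 hours after fertilisation, and control embryos (3 libraries) were intact siblings. For the separation, eggs lay in 3-amino-1,2,4-triazole (ATA) at 1 mM, which keeps the fertilisation envelope soft. The embryos then had 15 minutes of washes free of calcium and magnesium and were pushed through a syringe needle. The labels give a single treatment text for both groups and do not say which of these steps the intact embryos also passed. Adults came from the Barents and the White Sea over 3 breeding seasons, and the labels do not assign libraries to a site, a season or parents. The source name speaks of embryonic tissue explants, whereas the design text speaks of whole embryos.

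Metallothioneins are small, cysteine-rich proteins that bind zinc, copper and cadmium. Their genes are switched on by metal ions in many animals, and the proteins are known for storing essential metals and for binding toxic ones. In embryos of a related species, Strongylocentrotus purpuratus, MTa transcripts are known mainly from the aboral ectoderm in the absence of added metal. MTB1 is another metallothionein gene of that species.

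Each library held between 1804336 and 2294541 reads assigned to genes. The column names show the group of a library but no replicate number. Half-size and control columns could be matched by their shared deviations from the group means (r = 0.76, 0.63 and 0.52 over the 11129 rows whose mean reached 10 normalised counts). The pairs, named A, B and C in order of that correlation, come from the values and not from the labels, and the matching was the same when MTa and MTB1 were left out. All 7 listed skeletogenic genes had reads in every library, and their summed level ran from 5303 to 16568 normalised read counts. HE, the hatching enzyme gene, ran from 5.94 in half-size A to 471 in half-size C. Whether the libraries were of exactly the same stage was not tested.

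Given as half-size against control, MTa had 24449 against 18270 normalised read counts in pair A. It had 2567 against 2333 in pair B and 9427 against 10492 in pair C. Normalised counts are reads divided by a size factor per library. Both libraries of pair A were high, both of pair B were low, and both of pair C lay between, so the groups overlapped over nearly their whole range. In order of level the libraries ran from half-size A through control A, control C, half-size C and half-size B to control B.

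**Figure D1:**
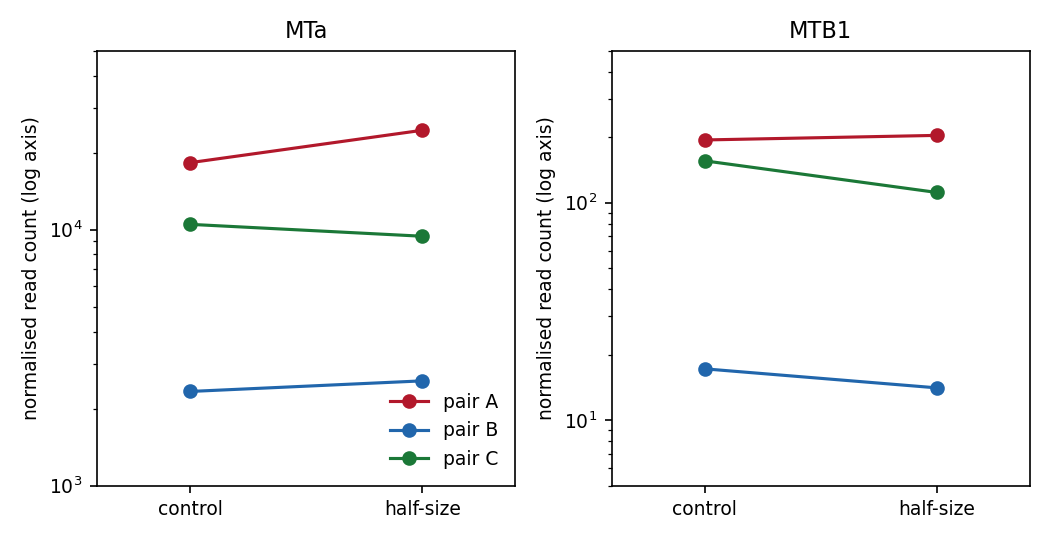
Normalised read counts (log axis) of MTa (left panel) and MTB1 (right panel) in control and half-size libraries; each point is 1 library and each line joins the libraries of 1 pair. Pair A is highest and pair B lowest for both genes, and the lines are nearly level, with MTa at 24449 and 18270 in pair A and at 2567 and 2333 in pair B.

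As a share of all assigned reads, MTa took 1.115% of the half-size library of pair A (95% Wilson interval 1.10% to 1.13%) and 0.853% of its control (0.841% to 0.866%). In pair B the shares were 0.127% (0.123% to 0.132%) and 0.119% (0.114% to 0.123%). In pair C they were 0.431% (0.422% to 0.441%) and 0.498% (0.488% to 0.507%). These intervals cover counting error only. Of neighbours in the order, only the intervals of the 2 libraries of pair B touched. By reads, with no correction for gene length, MTa was the top row in half-size A and ranked 2 in control A. It ranked 14 and 10 in pair C, and 114 and 121 in pair B.

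Behind these shares, half-size against control, stood 24680 against 17855 reads in pair A, 2916 against 2709 in pair B and 7779 against 10502 in pair C. The counting error of a single MTa value was thus at most 0.028 on the log2 scale. Within groups the SD of log2(value + 1) was 1.58. On the log2 means of the pairs, pair A stood 8.63-fold above pair B and 2.12-fold above pair C, and pair C stood 4.06-fold above pair B. Of the sum of squares of MTa on the log2 scale, 98.9% lay between pairs, 0.269% between groups and 0.820% in the rest.

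Few abundant genes varied as much. Among 367 other rows with a mean of at least 1000 normalised counts, the median SD within groups was 0.22, and 1 row exceeded MTa. That row was LOC373353, singled out after its values were seen, with an SD of 1.72. The file gives it no gene name. Its counts, half-size against control, were 3971 against 4166 (pair A), 297 against 500 (pair B) and 1189 against 1975 (pair C). Pair A was again high and pair B low. Among all 11128 other rows with a mean of at least 10, 195 (1.75%) had a larger SD than MTa, and the median was 0.37.

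The highest MTa value was 10.5 times the lowest, against a median of 1.47 times over the 367 abundant rows. For 2 of these rows the ratio was as large as for MTa or larger. By mean normalised count MTa ranked 9 among all 31261 rows. It ranked 1 among the 372 rows with a gene name, so its named neighbours in level all lay below it. Their values were much steadier. The highest value was 1.75 times the lowest for egf1, 1.20 times for etg and 1.15 times for pabp, which encodes poly(A)-binding protein. For the histone variant gene H2A.F/Z it was 1.48 times and for the homeobox gene otx 1.24 times. Pair B, where MTa was lowest, had the largest library totals, of 2294541 and 2284097 reads, and the half-size library of pair C the smallest. Pair B also had the most rows with a read, at 19327 and 19568, against 18278 to 19053 elsewhere. Leaving MTa out, the 100 most abundant rows took 26.8% and 25.7% of the normalised counts in pair B. In the other libraries they took between 27.2% and 27.8%. The part of these differences in the MTa values was not tested.

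**Figure D2:**
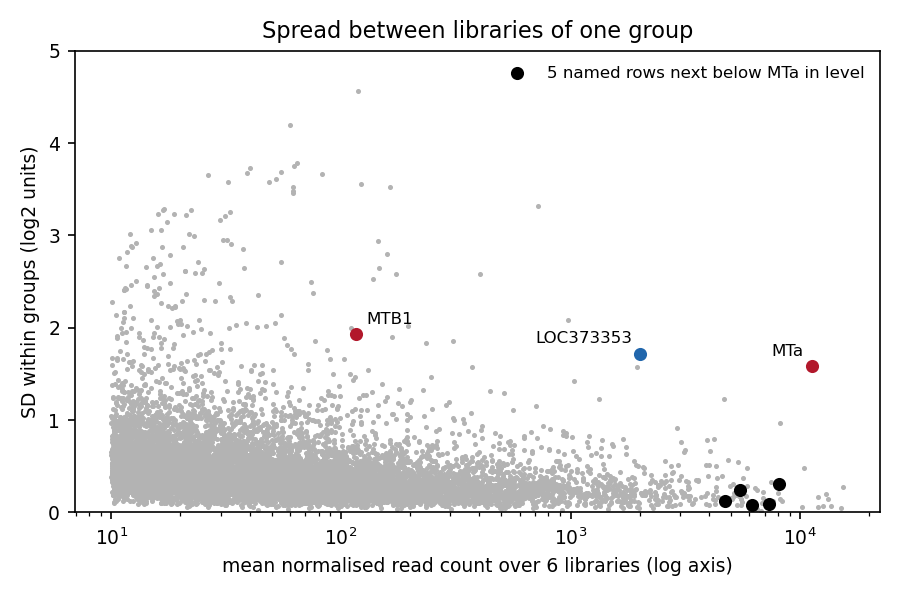
SD of log2(value + 1) within groups against the mean normalised read count (log axis) for rows whose mean reached 10; each grey point is 1 row. MTa (SD 1.58) and LOC373353 (SD 1.72) lie above most rows of like level and MTB1 (SD 1.93) is marked at its lower level, while the 5 named genes next below MTa in level lie near the bottom.

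Half-size embryos were compared with control embryos to ask whether MTa transcripts differ between them. The labels do not say whether control embryos passed the separation steps, so size and handling cannot be told apart. Mean normalised counts were 12148 ± 11192 for half-size against 10365 ± 7969 for control embryos (SD, n = 3 each). On the log2(value + 1) scale the means were 13.04 ± 1.63 and 12.90 ± 1.54 (SD, n = 3 each). The difference, half-size minus control, was 0.13 ± 0.84 (SE, limma-trend), with a 95% interval from -1.75 to 2.02. It did not pass the test (limma-trend adjusted p = 1.00 over 18016 rows), and a two-sided exact permutation test gave p = 0.9, where 3 libraries against 3 allow no p under 0.1. In the same fit 0 of 18016 rows passed (0%), and 242 had an unadjusted p under 0.05. On the same rows edgeR also called 0 and DESeq2 called 4. The authors' deposited table gave MTa a log2 fold change of 0.23, an SE of 1.08 and an adjusted p of 1.00. DESeq2 on the recovered reads returned the same fold change and SE, so the deposited values are not a further result.

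Within pairs the spread was smaller and the sign was mixed. The log2 difference of MTa was 0.42 in pair A, 0.14 in pair B and -0.15 in pair C, with counting errors of 0.014, 0.038 and 0.022. MTa was thus higher in the half-size library of 2 of 3 pairs, each time beyond its counting error, and lower beyond it in the other. Each side of a pair is 1 library, so counting error leaves out the spread between replicate libraries. With the pair as a block, the difference was 0.13 ± 0.13 (SE), with a 95% interval from -0.15 to 0.42. MTa did not pass in that fit either (limma-trend adjusted p = 0.946), in which 3 of 18016 rows were called (0.0167%). The interval leaves room for a level in half-size embryos above or below that of their siblings. It takes no account of the choice of pairs from the values, so it may be too narrow. Leaving out 1 library moved the unblocked difference of MTa to between -0.72 (control B dropped) and 0.99 (half-size B dropped), with no call. Dropping half-size A gave -0.64 and dropping control A gave 0.76. Dropping half-size C gave 0.05 and dropping control C gave 0.36. With the block, the difference was 0.28 without pair C and -0.0084 without pair A, and neither was called (adjusted p = 0.440 and 0.999 in limma-trend).

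MTB1, the other row with a metallothionein name, was high and low in the same libraries as MTa. Half-size against control, it had 204 against 194 normalised counts in pair A, 14.1 against 17.2 in pair B and 111 against 156 in pair C. These values rest on 206 against 190 reads (pair A), 16 against 20 (pair B) and 92 against 156 (pair C). Both libraries of pair A were again high and both of pair B low, with no separation of the groups. MTB1 spanned 14.5-fold from the lowest to the highest library, and its SD within groups was 1.93 on the log2 scale.

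Over the 6 libraries the log2 values of MTB1 and MTa had a Pearson r of 0.97, and the slope was 1.19 log2 units of MTB1 per log2 unit of MTa. The 6 points form 3 pairs of libraries, so the correlation rests on little more than 3 levels and is given as a description. Of the sum of squares of MTB1, 99.0% lay between pairs. No source used here names the counting program or its handling of near-identical sequences, so reads shared between metallothionein genes may have been assigned to either row. Reads of S. droebachiensis were counted under gene names of S. purpuratus, so the absolute level of either row depends on how alike the sequences of these species are. Rows without a gene name may hold further metallothioneins.

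MTB1 averaged 110 ± 95.01 normalised counts in half-size against 122 ± 93.2 in control embryos (SD, n = 3 each). The log2 difference was -0.23 ± 1.03 (SE, limma-trend), and -0.23 ± 0.18 with the pair as a block. MTB1 passed in neither fit (limma-trend adjusted p = 1.00, and 0.936 with the block). Within pairs A, B and C it differed by 0.07, -0.27 and -0.48, with counting errors of 0.15, 0.48 and 0.19. The order of the pairs was the same as for MTa.

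Reads of MTa per read of MTB1 were higher in the half-size library of each pair. Half-size against control, there were 120 against 94.0 MTa reads per MTB1 read in pair A, 182 against 135 in pair B and 84.6 against 67.3 in pair C. The log2 ratio differed by 0.35, 0.43 and 0.33 in pairs A, B and C, with counting errors of 0.15, 0.49 and 0.19. The group means were 6.94 ± 0.55 for half-size against 6.57 ± 0.50 for control (SD, n = 3 each), and the groups overlapped (two-sided exact permutation p = 0.5; the smallest possible p is 0.1). Taken by pair, the difference was 0.37 ± 0.05 (SD, n = 3 pairs), and a two-sided exact permutation test of its sign over the pairs gave p = 0.25, the smallest that 3 pairs allow. The SD of 0.05 is smaller than each of the 3 counting errors, so it understates how uncertain the difference is. The pairs themselves come from the values. The ratio was computed after the values were seen. The pairs differed more in it than the groups did, with the highest ratios in pair B, where both genes were lowest.

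**Figure D3:**
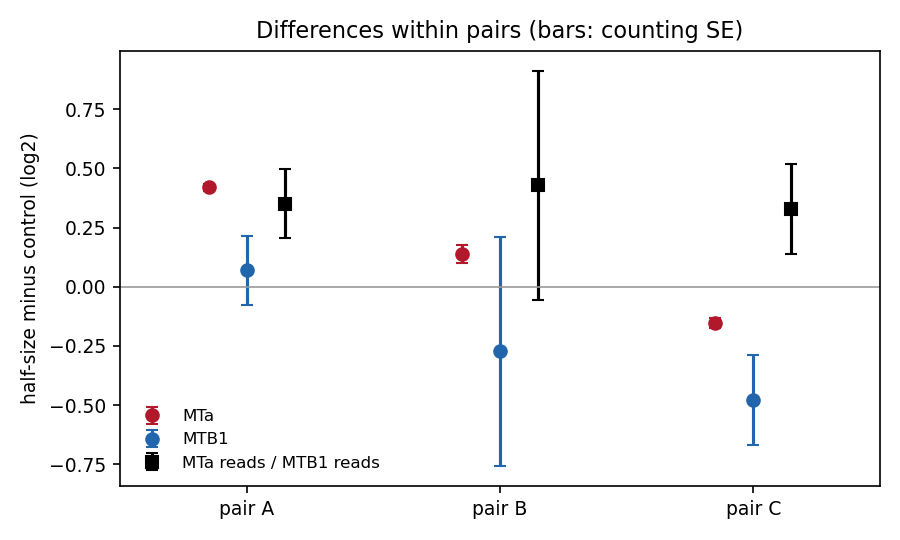
Half-size minus control difference on the log2 scale within pairs A, B and C, for MTa, for MTB1 and for the ratio of their reads; bars are counting errors (1 SE) and no replicate error. MTa runs from 0.42 to -0.15 and MTB1 from 0.07 to -0.48, while the ratio lies between 0.33 and 0.43 in all 3 pairs, with bars that reach below 0 in pair B.

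The other rows that the list of metal and stress handling matched were transporters of the ABC family. The table also held Gp96 and hsp110, which encode chaperones and were not on that list. Named after their values were seen, Gp96 had a mean of 192 normalised counts and r = 0.83 with MTa, and hsp110 had a mean of 879 and r = -0.34. ABCB1, an efflux transporter, went the other way from the metallothioneins between pairs. Half-size against control, it had 43.6 against 26.6 normalised counts in pair A, 92.4 against 124 in pair B and 70.3 against 48.95 in pair C. Pair B was highest for ABCB1 and pair A lowest, with r = -0.90 to MTa. ABCC1, another efflux transporter, had 33.7 against 47.1 counts in pair A, 22.01 against 23.3 in pair B and 31.5 against 46.96 in pair C (r = 0.80). ABCC5a had a mean of 1.39 normalised counts, and ABCC9a had no read in any library. The log2 differences between groups were 0.26 ± 0.51 for ABCB1 and -0.37 ± 0.35 for ABCC1 (SE, limma-trend). Of the 4 listed rows other than MTa that were tested, 0 passed over all rows in limma-trend (0% of all rows passed there). No row was matched for the metal-responsive regulator mtf1, for superoxide dismutase, catalase or ferritin, or for the hsp70, hsp90 and hsp60 names. Only the 372 rows with a gene name were searched, so these genes may be among the 30889 rows without one.

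Likeness to MTa was measured as Pearson's r of log2(value + 1) over the 6 libraries, which share depth, scaling and the pair structure. Of 11128 other rows, 477 (4.29%) had an r of at least 0.9 and 306 (2.75%) an r of at most -0.9. The median slope of the 477 rows was 0.27 log2 units per log2 unit of MTa, and 18 of them had a slope of at least 1. MTB1 was the only one of these 18 with a gene name, and LOC373353 was another. Among 192 named rows, 12 reached 0.9 and 6 reached -0.9.

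The named gene most like MTa was SpP19L (r = 0.99), a row named for the skeletogenic-cell protein P19. Half-size against control, it had 7438 against 5445 normalised counts in pair A, 2283 against 2090 in pair B and 3649 against 4286 in pair C. The order of its 6 libraries was that of MTa, over a smaller range (slope 0.49). HDAC1, a histone deacetylase gene, and H2A.F/Z, a histone variant gene, each had an r of 0.98 and a slope of 0.15. HDAC1 ran from 1261 in control B to 1815 in half-size A. H2A.F/Z ran from 4435 to 6558 between the same libraries. MTB1 came next, and then sfk3, a Src-family kinase gene, with r = 0.95 and between 18.9 and 61.4 counts. With scaling to the library total the r of HDAC1 and of H2A.F/Z was 0.94, that of SpP19L 0.98 and that of MTB1 0.97.

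The named genes with the lowest r were eif4e3 (r = -0.98), SPARC (r = -0.94) and gpc-6 (r = -0.94). SPARC encodes a calcium-binding glycoprotein of the extracellular matrix. Half-size against control, it had 1054 against 1108 normalised counts in pair A, 1848 against 1868 in pair B and 1584 against 1495 in pair C. eif4e3, of the family of cap-binding translation factors, had 13.9 counts at the lowest (half-size A) and 23.8 at the highest (half-size B). gpc-6, a glypican gene, ran from 48.5 to 76.6 between those libraries. All 3 varied little next to MTa, with slopes of -0.20, -0.24 and -0.18. Among rows without a name, LOC575908 had the highest r (0.999, with 7.75 to 20.8 counts) and LOC582914 the lowest (-0.99).

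**Figure D4:**
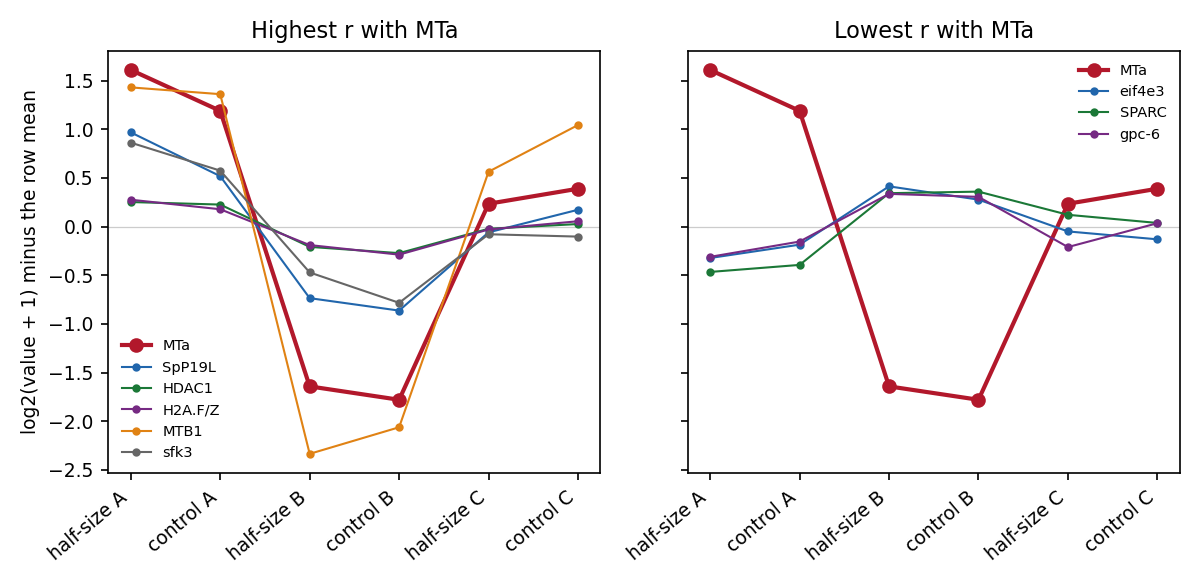
log2(value + 1) minus the row's own mean in each of the 6 libraries, for MTa and the 5 named genes with the highest r (left panel) and the 3 with the lowest r (right panel). MTB1 and MTa span over 3 log2 units, and the other named genes keep the order of the pairs, or its reverse, over a smaller range.

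Genes of the aboral ectoderm, where S. purpuratus embryos are known to express MTa, did not share its pattern as a list. Of 13 named rows, 11 had a mean of at least 10. Their r with MTa ran from -0.82 to 0.94 with a median of -0.11, against a median of -0.0025 over all other rows, and 1 of 11 reached 0.9. That gene was spec2c, which encodes a calcium-binding protein of the aboral ectoderm. Half-size against control, it had 2372 against 1594 normalised counts in pair A, 856 against 885 in pair B and 1205 against 1252 in pair C. The related spec2d had r = 0.71 and 22.01 to 35.7 counts, and SPEC1 had r = 0.67 and a mean of 2795 counts. These were the 3 of 11 rows with r above 0. The rest, all transcription factor genes, had r below 0, a division seen only after the values were known. The transcription factor genes NK2.2 and Tbx2/3 had the lowest r, at -0.82 and -0.70, and NK2.2 was highest, with 821 counts, in the control library of pair B. ARS was measured at a mean of 3.38 counts, and the actin gene cyiiib had no read. The summed level of the list was 5412 to 8843 in half-size and 6095 to 7011 in control libraries.

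Skeletogenic genes had the highest median r of the cell type marker lists, at 0.85. Of 7 measured rows, 6 had r above 0, and SpP19L and P16 reached 0.9. Over all other rows the median r was -0.0025, and 4.29% reached 0.9. P16, a cell surface protein gene of skeletogenic cells, had 1446 against 1012 normalised counts in pair A, 535 against 452 in pair B and 669 against 732 in pair C. SM30A, a spicule matrix gene, had r = 0.74, and the transcription factor gene ets1 had r = -0.77. The summed level of the 7 genes was 16568 against 11961 in pair A, 5625 against 5303 in pair B and 7124 against 8912 in pair C. It was therefore highest in pair A and lowest in pair B, as MTa was, over a smaller range. None of the 7 was at 0. The part of these differences in the MTa values was not tested. In whole embryos, more cells of a type and more RNA per cell cannot be told apart.

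The remaining lists were short. The ribosomal protein genes rps15a, rps14 and rpl36 had r between 0.75 and 0.89 with MTa, with summed levels of 5374 against 4681 in pair A, 3803 against 3299 in pair B and 3592 against 4104 in pair C. Hatching enzyme is encoded by HE. It and Ets4, an ETS-family transcription factor gene, had r = -0.74 and -0.66. HE was lowest in pair A, with 5.94 against 10.2 normalised counts. It had 177 against 171 in pair B and 471 against 39.96 in pair C. Endoderm genes (4 rows) had r from -0.08 to 0.58, pigment and other mesoderm genes (2 rows) from -0.25 to 0.28, and apical neuroectoderm genes (3 rows) from -0.60 to 0.50, and none reached 0.9. Of the 37 tested rows of all lists other than MTa, 0 passed over all rows in limma-trend. An unadjusted p under 0.05 was found for 5 of these 37, and for 242 of all 18016 rows (1.34%). In blocked fits limma-trend also called 0 of the 37. Blocked edgeR called 3 (Dlx, NK2.1 and Ets4), where it called 57 of all 18016 rows (0.316%). Blocked DESeq2 called 1 (NK2.1), where it called 22 of all 18016 rows (0.122%). It gave no adjusted p to 12924 of these rows, ABCC1 among them, so they could not be called and the share is not that of callable rows. The lists were chosen with earlier results of these data known, so nothing is read from these shares.

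**Figure D5:**
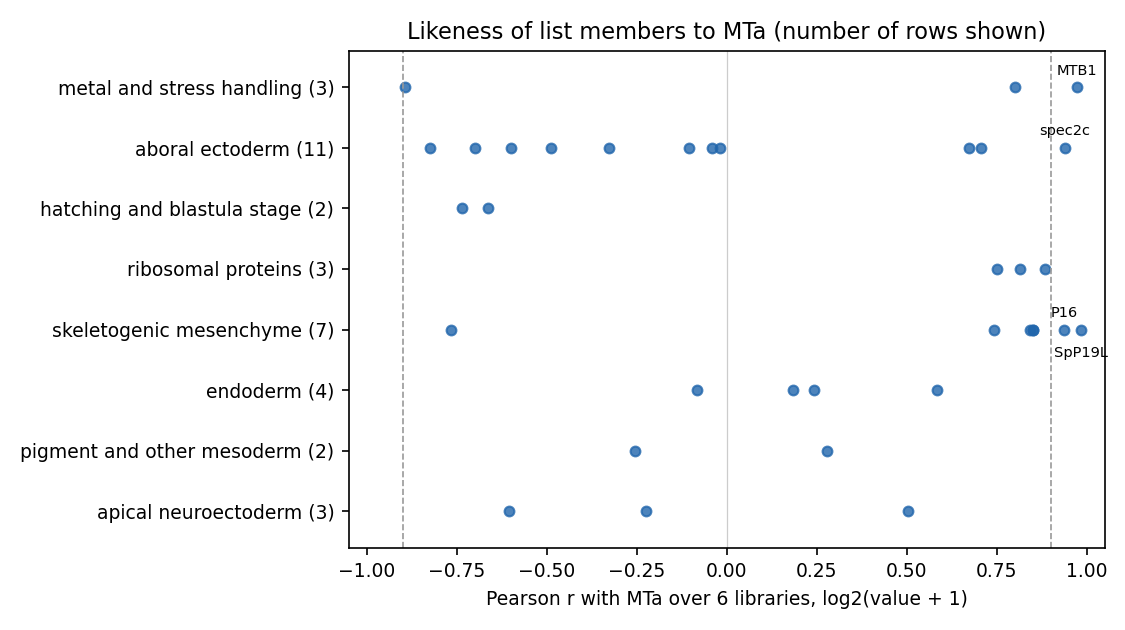
Pearson r with MTa over the 6 libraries for each list member with a mean of at least 10, by list; dashed lines mark 0.9 and -0.9, and members at or above 0.9 are named. MTB1, spec2c, P16 and SpP19L lie beyond 0.9, and the aboral ectoderm genes spread from -0.82 to 0.94.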

How the data were processed

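Per the labels' protocols, polyadenylated RNA was made into libraries with a strand-specific kit. DESeq, edgeR and Bowtie2 2.2.2 appear in the submitters' processing notes without a role. Per the file headers, genes carry NCBI identifiers of the S. purpuratus assembly Spur_4.2. How reads were aligned and counted, and with which strand setting, is not stated in the labels or headers. The deposited table holds a signal per gene and library, which the authors made by scaling read counts with 1 size factor for each library. Reads were recovered from it, since 100% of values were whole multiples of the smallest value in their column (within 1e-06). The deposited comparison holds log2 fold changes, their errors, a score (fold change over error), p-values and adjusted p-values, copied here for MTa only.

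Because the values are scaled, limma-trend (limma 3.58.1, R 4.3.3) was fitted to log2(value + 1) for the 18016 rows whose mean reached 1, with p-values adjusted by Benjamini-Hochberg and called under 0.05; this scale understates changes of low genes. edgeR 4.0.16 (quasi-likelihood test) and DESeq2 1.42.0 on the recovered reads were alternatives. Fits were tested on simulated data. Columns carry no replicate number, so each half-size column was paired with a control column such that the mean correlation of deviations was highest. It was 0.64, against 0.21 for the next choice. P-values and intervals of the blocked fits take no account of that choice. The samples are biological replicates per the labels, which do not state separate parents, so p-values speak only of the spread among these samples.

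MTa, the lists and the tests were chosen with earlier results of these data known. The named genes are MTa, the measured members of the lists (for lists over 6 members, the 2 with the highest and the 2 with the lowest r with MTa), the 5 named rows with the highest and the 3 with the lowest r, up to 2 unnamed rows at either end, and the 5 named rows next to MTa in level. Other genes that the text names, among them SPEC1, Dlx, IrxA, ARS, cyiiib, Gp96, hsp110 and LOC373353, were chosen after their values were seen. MTB1 was taken as a metallothionein name, though the list spelt its symbol otherwise.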

Additional observations from a re-analysis of the deposited data

How the results depend on the processing

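The MTa difference of 0.13 kept its sign in 17 of 20 alternatives and was called in none. The replicate block left it at 0.13 in limma-trend, edgeR and DESeq2, and it was 0.22 to 0.23 in unblocked edgeR and DESeq2. It turned negative in 3 leave-outs, with ranges of -0.72 to 0.99 over single libraries and -0.0084 to 0.28 over pairs in the blocked fit. No paired analysis on the labels' replicate numbers was possible because the columns carry none. The SD within groups was 1.52 to 1.58 under other pseudocounts and scalings and 1.37 to 1.83 without single libraries. The count of 0 called rows stayed at 0 under other pseudocounts, filters and scalings, in unblocked edgeR and without single libraries (0 to 0), and was 4 in unblocked DESeq2. With the replicate block, limma-trend called 3 rows, edgeR 57 and DESeq2 22, where DESeq2 left 12924 of 18016 rows without an adjusted p. The blocked count ran from 0 to 80 without single pairs (80 without pair A, 31 without pair C), and the cause was not tested. The count of 477 rows like MTa became 293 with scaling to the library total and 233 of 3072 with a mean of at least 100. It was 704 over deviations from the group means and 479 to 936 without single libraries. An r of 0.9 is easier to reach with fewer libraries or once group means are removed. Those counts are therefore not directly comparable with 477. No list member was called in limma-trend without single libraries (0 to 0) or in unblocked edgeR or DESeq2. Blocked limma-trend called 4 list members without pair A (IrxA, Dlx, Ets4 and HE), 1 without pair C (NK2.1) and 0 without pair B. MTB1 ran from -1.32 to 0.88 and ABCB1 from -0.24 to 0.85 without single libraries, which leaves 1 pair incomplete, and ABCC1 from -0.70 to -0.19. The ABCB1 difference was 0.03 to 0.04 in unblocked edgeR and DESeq2. With 16 and 20 reads in pair B, depth limits MTB1 there, and MTa nowhere.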
